A study of Mus musculus with 8 samples.

Results

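Transcripts of 9 genes that mark the passage from committed precursor to newly formed oligodendrocyte were measured in mouse corpus callosum after cuprizone, namely Bmp4, Neu4, Gpr17, Fyn, Enpp6, Itpr2, Tcf7l2, Bcas1 and Rnf122. They were taken by symbol from 19938 genes with a transcript cluster carrying exactly 1 gene symbol, and all 9 members had 1 such cluster each. The 8 samples were hand-dissected corpus callosum of male wild-type C57BL/6 mice aged 8 weeks and perfused with PBS. The control group, 4 samples, received normal diet, and the cuprizone group, 4 samples, received 0.25% cuprizone for 1 week. Cuprizone is a copper chelator to which oligodendrocytes in this tract are sensitive. Each sample was 1 biological replicate on 1 Affymetrix Mouse Gene 1.0 ST array, and all levels below are log2 values as the authors normalized them. No cells were sorted, so for every gene below fewer cells of a type and less RNA per cell cannot be told apart.

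Oligodendrocyte progenitors leave the cell cycle and become committed precursors, which then turn into newly formed, premyelinating oligodendrocytes before myelin genes reach their full level. Each step has transient markers. Bmp4, Neu4 and Gpr17 are highest in committed precursors, Fyn, Enpp6, Itpr2 and Tcf7l2 in newly formed cells, and Bcas1 and Rnf122 in newly formed to early myelinating cells. Several of them have other sources in brain: Fyn is made by neurons and T cells, Itpr2 by astrocytes, and Tcf7l2 by neurons of the thalamus and habenula. The stages of the lineage were not separated either. For every member, called or not, the stage that gave the measured RNA was not tested.

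Pairs of arrays within a diet had Pearson correlations of 0.9952 to 0.9971, and pairs across diets of 0.9884 to 0.9944, over the 23410 clusters with a gene symbol. All 25 measured genes of the mature oligodendrocyte list were lower with cuprizone, with a median log2 fold change of -1.82, against -0.01 over all clusters tested. The mean log2 level of that list in controls was 10.33 to 10.56. The 1035 olfactory receptor clusters, which this tissue is not known to use, had a median level of 4.37 and a 95th percentile of 6.22, which gives a rough guide to background. All 9 members had mean levels above that percentile, and the share of olfactory receptor clusters brighter than a member was 0 to 0.483%. Cuprizone replicates 2 and 3 stood apart on genes of thalamic and habenular neurons, and calls that are lost without them are named as such.

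Of the 9 members 3 fell, Enpp6, Bcas1 and Rnf122, and none rose. Each fell by a factor between 1.63 and 1.69. The other 6, among them all 3 committed precursor markers, did not pass the threshold. Over all 23410 clusters tested, limma called 8.22% at a Benjamini-Hochberg adjusted p under 0.05, 3.52% lower and 4.71% higher. A fall of at least 1.5-fold, as in these 3 members, was called in 0.91%. Groups that did not overlap, with cuprizone lower, were found for 4 of the 9 members, the 3 called genes and Neu4, against 7.09% of all clusters tested. By stage, the test called 0 of 3 committed precursor genes, 1 of 4 newly formed genes and 2 of 2 newly formed to early myelinating genes. At an unadjusted limma p under 0.05, which 4867 of the 23410 clusters met, Bmp4 and Itpr2 would have been added, both higher with cuprizone. The median log2 fold change of the 9 members was -0.08. The same 3 genes were called lower when both cuprizone replicates 2 and 3 were left out, an alternative added after the values had been seen.

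**Figure D1:**
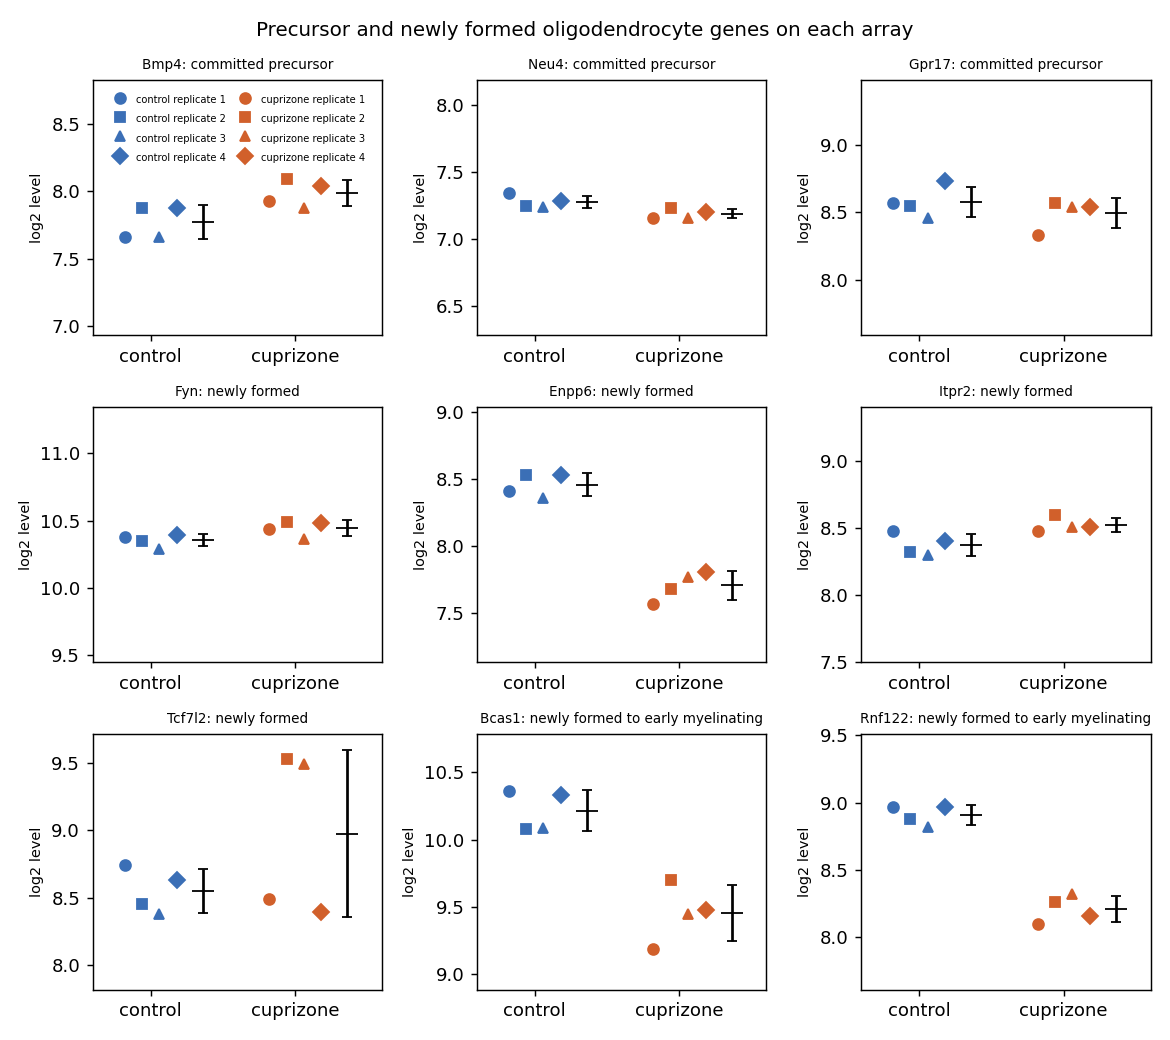
Log2 level (vertical axis, same span in each panel) of the 9 genes on the 4 control and 4 cuprizone arrays; symbols mark the replicate, and the black mark with bars gives the mean and SD. Enpp6, Bcas1 and Rnf122 are lower on every cuprizone array than on any control array, and Tcf7l2 is high on cuprizone replicates 2 and 3 only.

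Bmp4, a secreted ligand that holds back oligodendrocyte differentiation and favours astrocyte fate, stood at 7.66, 7.88, 7.66 and 7.88 on control replicates 1 to 4 and at 7.93, 8.09, 7.88 and 8.04 on the cuprizone arrays. The groups met at 7.88, with the other cuprizone arrays above all controls. Replicates 2 and 4 were the higher arrays within each diet. The same held for the list of choroid plexus, ependyma and meninges, whose mean lay 0.17 and 0.38 from the control mean on control replicates 2 and 4 and -0.22 and -0.33 on 1 and 3. On the cuprizone arrays it lay at -0.39, 0.24, -0.30 and 0.00 in replicate order. Kcnj13, a potassium channel of choroid plexus named after its values were seen, stood at 8.90 and 9.54 on control replicates 2 and 4 and at 8.86 and 8.55 on the cuprizone ones, against 6.75 to 7.31 on the other arrays. The part of these cells in the Bmp4 value was not tested. With the replicate number as a block the limma adjusted p of Bmp4 was 0.0666. The log2 fold change was 0.22 ± 0.08 (SE, limma adjusted p = 0.117), with a 95% interval of 0.05 to 0.38, and over the alternatives run the adjusted p ranged from 0.0634 to 0.264.

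Neu4, a sialidase that trims sialic acid from glycoproteins and gangliosides, stood at 7.34, 7.25, 7.24 and 7.28 in controls and at 7.16, 7.23, 7.16 and 7.20 with cuprizone. The groups did not overlap, but they were only 0.01 apart, and 15.3% of all clusters tested had groups without overlap in either direction. Its log2 fold change was -0.09 ± 0.05 (limma adjusted p = 0.343).

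Gpr17, a G protein-coupled receptor that peaks in committed precursors and must be shut off for maturation, stood at 8.57, 8.55, 8.46 and 8.73 in controls. On the cuprizone arrays it stood at 8.33, 8.57, 8.54 and 8.54. The groups overlapped, with replicate 1 the lowest cuprizone array. The log2 fold change was -0.08 ± 0.07 (limma adjusted p = 0.612), and its 95% interval, -0.25 to 0.08, limits a fall to a factor of 1.19. In the RefSeq gene table (GRCm38.p6) Gpr17 lies inside Lims2, which encodes a focal adhesion protein and was itself at -0.06 ± 0.06.

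Among the newly formed stage genes the one called was Enpp6, a choline-specific phosphodiesterase widely used to mark newly forming oligodendrocytes. Its levels were 8.41, 8.53, 8.36 and 8.53 in controls and 7.57, 7.68, 7.77 and 7.81 with cuprizone. The lowest control stood 0.55 above the highest cuprizone array. It fell from 8.46 ± 0.08 to 7.71 ± 0.10 (mean ± SD, n = 4 each), a log2 difference of -0.75 ± 0.07 (adjusted p = 6.31e-05, limma).

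The promoter of Enpp6 is shown as that of the called member whose window was in the RefSeq promoter table, with that of the uncalled committed precursor gene Neu4 beside it. Both are the 250 bases before the start site, 5′ to 3′, and capitals mark matches to the motifs searched on both strands: the SOX cores ACAAAG and ACAATG, the E-box CAGCTG and the TCF/LEF motif CTTTGAT. The reverse of ACAAAG and the TCF/LEF motif share the letters CTTTG but cannot match at the same place. The windows are chr8:46986637-46986886 (plus strand) for Enpp6 and chr1:94020243-94020492 (plus strand) for Neu4, build GRCm38.p6.
Enpp6: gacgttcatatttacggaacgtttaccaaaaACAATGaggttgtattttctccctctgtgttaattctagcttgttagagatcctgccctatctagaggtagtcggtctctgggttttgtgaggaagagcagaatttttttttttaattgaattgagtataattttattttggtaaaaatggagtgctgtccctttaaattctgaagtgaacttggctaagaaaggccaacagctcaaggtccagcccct
Neu4: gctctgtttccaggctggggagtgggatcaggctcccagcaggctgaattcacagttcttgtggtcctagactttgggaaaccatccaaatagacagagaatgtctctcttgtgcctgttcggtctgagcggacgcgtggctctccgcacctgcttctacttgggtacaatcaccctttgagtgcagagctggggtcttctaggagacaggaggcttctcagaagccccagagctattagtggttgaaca
The Enpp6 window held 1 match, ACAATG, beginning 219 bases before the start site, and the Neu4 window held 0. ACAATG was found in 10.7% of the 32851 promoter windows of this length, ACAAAG in 16.5%, CAGCTG in 4271 windows and CTTTGAT in 3.21%. In all, 6 members had a promoter in the table, in 7 windows, of which 3 held none of these letters, and Fyn held 1 CTTTGAT. A match describes the letters only, and no measurement of binding was made.

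Fyn, a Src family kinase that acts below integrins and promotes local synthesis of myelin basic protein, stood at 10.38, 10.35, 10.29 and 10.39 in controls and at 10.44, 10.49, 10.36 and 10.48 with cuprizone. The groups overlapped narrowly. The log2 fold change was 0.09 ± 0.05 (limma adjusted p = 0.397), with a 95% interval of -0.03 to 0.21. The T cell list, another possible source, had 0 of 10 genes called, with a mean of 6.04 to 6.15 with cuprizone and 6.07 to 6.20 in controls. Both ranges lay below the 95th percentile of olfactory receptor clusters, 6.22, so this list says little about T cells. In the general neuron list 0 of 13 genes were called. The part of neurons and T cells in the Fyn value was not tested.

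Itpr2, a calcium release channel of the endoplasmic reticulum, stood at 8.48, 8.32, 8.30 and 8.40 in controls and at 8.48, 8.60, 8.51 and 8.51 with cuprizone. The groups met at 8.48. The log2 fold change was 0.15 ± 0.06 (limma adjusted p = 0.159; 0.0795 to 0.457 over the alternatives), with a 95% interval of 0.02 to 0.28. Astrocytes also make Itpr2, and in the astrocyte list 4 of 12 genes rose and 2 fell, among them Gfap, the astrocyte intermediate filament (log2 fold change 0.96 ± 0.06), and the glutamate transporter Slc1a2 (-0.60 ± 0.07). The part of astrocytes in the Itpr2 value was not tested.

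Tcf7l2, a transcription factor of the Wnt pathway that is switched on briefly in newly formed oligodendrocytes, did not behave alike on the 4 cuprizone arrays. It stood at 8.74, 8.45, 8.38 and 8.63 in controls and at 8.49, 9.53, 9.49 and 8.39 with cuprizone. Replicates 2 and 3 were above every other array, and replicates 1 and 4 lay within the control range. The log2 fold change was 0.43 ± 0.24 (limma adjusted p = 0.370), with a 95% interval of -0.11 to 0.97. Without both cuprizone replicates 2 and 3 it was -0.11 ± 0.11 (limma adjusted p = 0.675).

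The same 2 arrays were high for genes of thalamic and habenular neurons. Of 11 measured genes of that list, 8 were higher on cuprizone replicates 2 and 3 than on any other array, and none was called between the groups. Prkcd, a protein kinase C of thalamic relay neurons, stood at 10.63 and 10.51 on those 2 arrays, against 8.85 and 8.46 on cuprizone replicates 1 and 4 and 9.72, 8.75, 8.64 and 8.90 in controls. Slc17a6, the vesicular glutamate transporter of subcortical neurons, stood at 9.12 and 9.23 there, against 8.30 and 7.44 on the other cuprizone arrays. Control replicate 1, the highest control for Tcf7l2, was also the highest control for Prkcd and Slc17a6. The list mean lay 0.54 and 0.66 above the control mean on cuprizone replicates 2 and 3, and -0.12 and -0.28 from it on replicates 1 and 4. In controls it lay between -0.12 and 0.23. The general neuron list had no gene called, and its mean lay between -0.09 and -0.02 from the control mean on the cuprizone arrays. With the thalamic list mean as a covariate, also added after the values had been seen, the log2 fold change of Tcf7l2 was 0.17 ± 0.07 (limma adjusted p = 0.199).

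**Figure D2:**
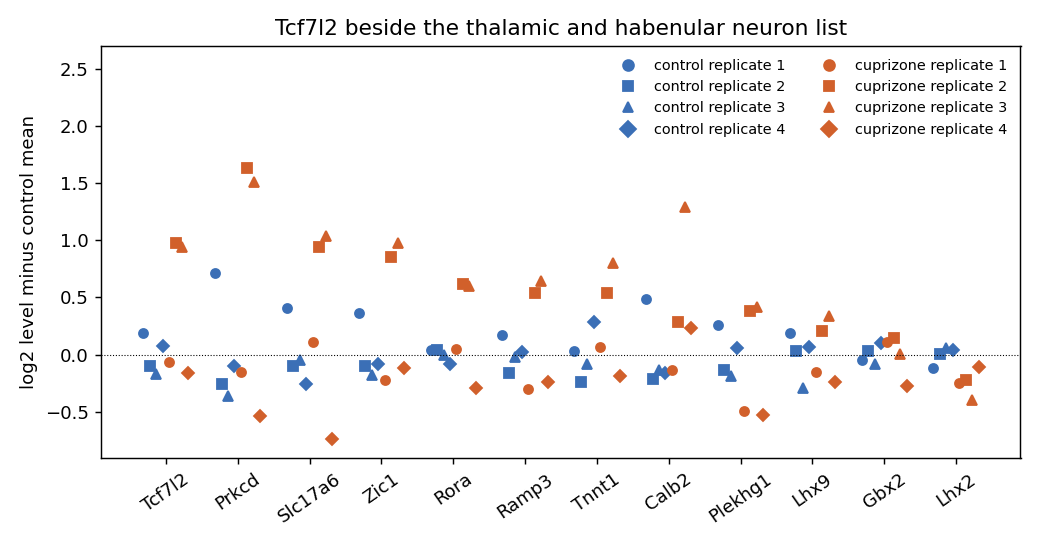
Log2 level minus the control mean (vertical axis) of Tcf7l2 and the 11 genes of the thalamic and habenular neuron list on each of 8 arrays; colours mark the diet and symbols the replicate. Cuprizone replicates 2 and 3 (orange squares and triangles) are the highest arrays for Tcf7l2 and for 8 of the 11 genes.

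Tcf7l2 had 2 start sites in the promoter table, shown because the array summarises probes along the whole transcript and the values above do not tell which start was used. The windows are the 250 bases before each start on chromosome 19, chr19:55741560-55741809 and chr19:55895071-55895320 (plus strand, GRCm38.p6), with matches to the same motifs in capitals.
Tcf7l2 first start: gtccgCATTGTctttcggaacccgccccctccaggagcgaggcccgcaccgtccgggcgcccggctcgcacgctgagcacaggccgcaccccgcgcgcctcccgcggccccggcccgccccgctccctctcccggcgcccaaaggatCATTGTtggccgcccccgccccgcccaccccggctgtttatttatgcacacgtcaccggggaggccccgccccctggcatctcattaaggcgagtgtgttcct
Tcf7l2 second start: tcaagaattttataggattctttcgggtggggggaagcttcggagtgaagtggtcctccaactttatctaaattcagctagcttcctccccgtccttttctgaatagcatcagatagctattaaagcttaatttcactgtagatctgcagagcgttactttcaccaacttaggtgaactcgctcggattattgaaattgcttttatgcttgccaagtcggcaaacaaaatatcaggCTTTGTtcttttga
The first window held 2 matches to ACAATG and the second 1 match to ACAAAG, all on the opposite strand. The GC content was 72.8% in the first and 40.8% in the second.

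Bcas1, whose protein marks early myelinating cells, stood at 10.36, 10.08, 10.09 and 10.33 in controls and at 9.19, 9.70, 9.45 and 9.48 with cuprizone. No arrays overlapped, with the lowest control 0.38 above the highest cuprizone array. It fell from 10.21 ± 0.15 to 9.46 ± 0.21, a log2 difference of -0.76 ± 0.11 (adjusted p = 0.00115, limma). Cuprizone replicate 1 was lowest and replicate 2 highest of the group, as for the mean of the mature oligodendrocyte list, which lay at -2.19 from the control mean on replicate 1 and at -1.58 on replicate 2.

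Rnf122, a membrane-bound E3 ubiquitin ligase, stood at 8.97, 8.88, 8.82 and 8.97 in controls and at 8.10, 8.26, 8.32 and 8.16 with cuprizone. The groups were 0.50 apart at their nearest arrays. It fell from 8.91 ± 0.08 to 8.21 ± 0.10, a log2 difference of -0.70 ± 0.07 (adjusted p = 7.35e-05, limma). Leaving out both cuprizone replicates 2 and 3 gave -0.77 for Enpp6, -0.88 for Bcas1 and -0.78 for Rnf122.

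**Figure D3:**
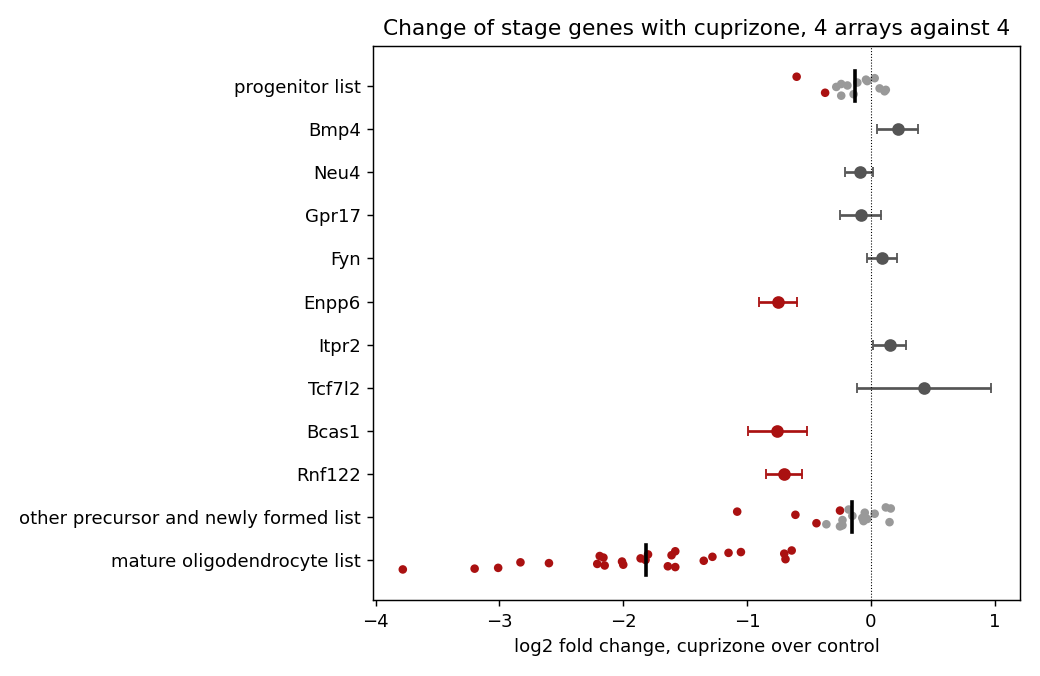
Log2 fold change, cuprizone over control (horizontal axis), of each of the 9 genes with its 95% interval, in order of stage, between the single genes of a progenitor list, of other precursor and newly formed genes and of mature oligodendrocytes (points, spread vertically only to keep them apart; black bar, median). Red marks genes past the limma threshold; the 9 genes lie between -0.76 and 0.43, and the mature genes between -3.78 and -0.64.

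Genes on either side of these stages were taken from fixed lists. In the progenitor list 2 of 14 genes fell and none rose, with a median of -0.13. These were Rlbp1, a retinoid-binding protein (-0.60 ± 0.06), and the proteoglycan Cspg5 (-0.37 ± 0.06). Pdgfra, the receptor for the main progenitor mitogen, stood at 8.86, 8.62, 8.74 and 8.86 in controls and at 8.24, 8.71, 8.62 and 8.53 with cuprizone, a log2 difference of -0.24 ± 0.10 (adjusted p = 0.182, limma). Among 19 other genes of committed precursors and newly formed cells 4 fell and none rose, with a median of -0.15. They were Myrf, the transcription factor that switches on myelin genes (-1.08 ± 0.12), the Rac regulator Chn2 (-0.61 ± 0.07), the membrane protein Prom1 (-0.44 ± 0.07) and the transcriptional regulator Zfp488 (-0.25 ± 0.06). The adjusted p of Zfp488 was 0.0343 and ranged from 0.0154 to 0.0989 over the alternatives, past the threshold in 8 of 17. The call was lost without any 1 of control replicates 1 to 4 and cuprizone replicates 1, 3 and 4, with the replicate number as a block, and without both cuprizone replicates 2 and 3 (0.0718). Of the 25 mature genes, 22 fell by more than Bcas1. The largest fall in that list was that of Mog, a glycoprotein of the outer myelin surface, at -3.78 ± 0.18.

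The change of each member was then set against Mog and against Pdgfra within each array. The log2 ratio to Mog was 3.02 to 4.21 higher with cuprizone for the 9 members. Since Mog itself fell by 3.78, a gene that did not change gains about as much on it. The outcome of a test on these ratios was thus settled in advance, and they are given as a description only. Within the mature list the smallest falls were those of Ndrg1 (-0.64), Apod (-0.69) and Car2 (-0.70), named after their values were seen, close in size to those of Enpp6, Bcas1 and Rnf122.

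The ratios to Pdgfra, which share that 1 reference and so are not independent of one another, were tested by exact permutation of the diets among the 8 arrays (two-sided, 70 assignments). The smallest p this allows is 0.0286. Benjamini-Hochberg adjustment was planned over the 18 comparisons with both references. The comparisons with Mog, settled in advance, take part in that adjustment and make the adjusted p for Pdgfra smaller. The p adjusted over the 9 comparisons with Pdgfra alone, added after the values had been seen, is given beside it.

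Against Pdgfra the log2 ratio of Enpp6 fell by 0.50, that of Bcas1 by 0.51 and that of Rnf122 by 0.46, with 4 of 4 cuprizone arrays below every control array (exact permutation adjusted p = 0.0343 each, 0.0429 over Pdgfra alone). Bmp4 gained 0.46, Itpr2 0.40 and Fyn 0.33, with 4 of 4 arrays above every control (exact permutation adjusted p = 0.0343 each, 0.0429 over Pdgfra alone). Enpp6, Bcas1 and Rnf122 had already been called lower by limma, so their ratios largely repeat those falls. Being at the smallest p the test allows, they also make the adjusted p of Bmp4, Itpr2 and Fyn smaller, over Pdgfra alone too. For Gpr17 the change was 0.16 (exact permutation adjusted p = 0.151) and for Neu4 0.15 (0.171), with 2 of 4 arrays above the controls in each. For Tcf7l2 it was 0.67, with 3 of 4 arrays above (exact permutation adjusted p = 0.0643). Pdgfra itself changed by -0.24 without a call, and this enters every ratio. With Cspg4 as the progenitor gene the change was 0.06 for Gpr17 and 0.05 for Neu4. It was then 0.36 for Bmp4, 0.30 for Itpr2 and 0.23 for Fyn, and -0.61 for Enpp6, -0.62 for Bcas1 and -0.56 for Rnf122. Over Pdgfra alone, none of the 6 calls relative to Pdgfra held when any 1 of the 8 arrays was left out. The exact permutation adjusted p of these members then lay between 0.0514 and 0.11. The p of this test has a floor, so its adjusted p depends on how many members reach the floor together. A lost call therefore does not show that a change rests on 1 array. With each array left out in turn, the change ranged from -0.56 to -0.43 for Enpp6, -0.54 to -0.48 for Bcas1 and 0.32 to 0.44 for Itpr2.

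**Figure D4:**
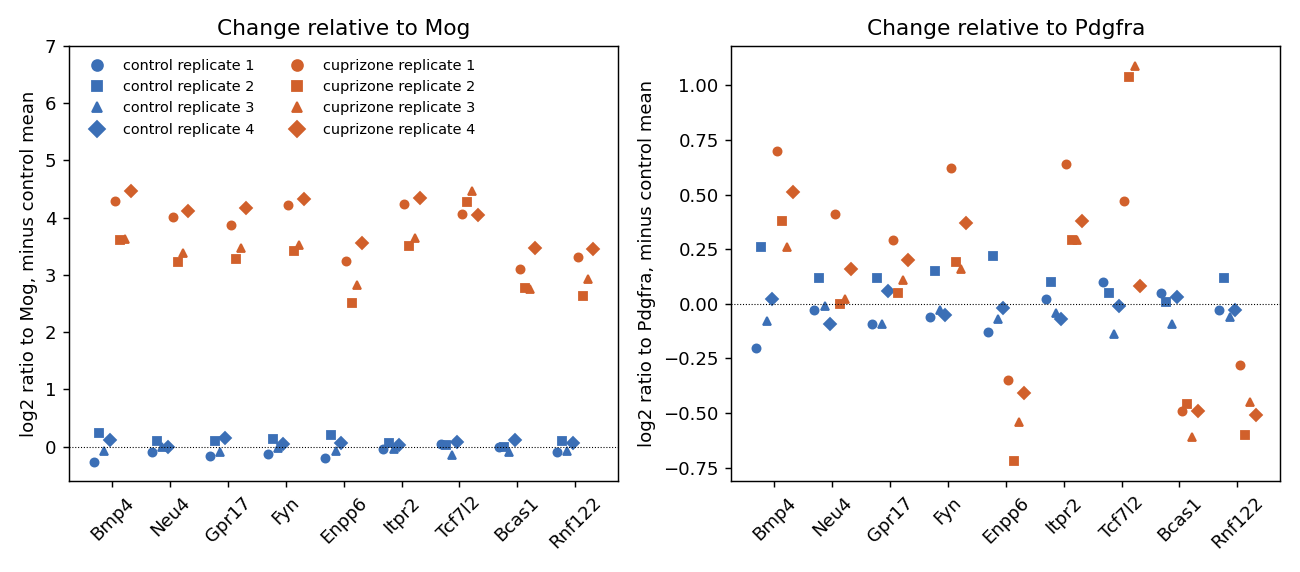
Log2 ratio of each of the 9 genes to Mog (left) and to Pdgfra (right) on each array, minus the control mean of that ratio (vertical axes of different span); colours mark the diet and symbols the replicate. All cuprizone arrays lie above the controls relative to Mog, while relative to Pdgfra those of Enpp6, Bcas1 and Rnf122 lie below them.

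Gpr17 was taken as a further reference after the values had been seen, with adjustment over the other 8 members. For this reference no array was left out in turn. Enpp6 changed by -0.67 relative to Gpr17, Bcas1 by -0.68 and Rnf122 by -0.62, with 4 of 4 cuprizone arrays below every control (exact permutation adjusted p = 0.0457 each). Gpr17 itself changed by only -0.08, so these 3 ratios repeat falls already seen and add no support to them. Bmp4 gained 0.30 and Itpr2 0.24, with 4 of 4 arrays above the controls (exact permutation adjusted p = 0.0457 each). The values of Neu4 at -0.01 (exact permutation adjusted p = 0.914), Fyn at 0.17 (0.0762) and Tcf7l2 at 0.51 (0.294) did not pass. Enpp6, Bcas1 and Rnf122 take part in this adjustment at the smallest p the test allows. They thereby make the adjusted p of Bmp4 and Itpr2 smaller, so no difference of Bmp4 or Itpr2 from Gpr17 is drawn from these calls.

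The genes whose levels ran most closely with 3 of the members over the 8 arrays were sought among 17005 others, as a description. Since the arrays form 2 groups, a high Pearson correlation with a called member also holds the difference between the diets. For Enpp6 they were the sterol isomerase Ebp (r = 0.994), the RNA-binding protein Elavl3 (0.988) and the tubulin Tubb4a (0.987), all called lower. For Bcas1 they were the ion transporter Slc12a2 (0.995), the fatty acid elongase Elovl6 (0.992) and Myrf (0.992), all called lower. For Gpr17 they were Lims2 (0.940), whose gene encloses it, Tjap1 (0.932) and the sialyltransferase St6galnac2 (0.931), of which none was called.

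Genes of the pathways of Fyn, Tcf7l2 and Bmp4 were read against the 8.22% called over all clusters tested, and nothing particular to a pathway is drawn from their counts. In the Fyn signalling list, which holds other Src family kinases, their regulators and their partners, 1 of 21 genes rose and 1 fell, with a median of 0.04. Itga6, a laminin receptor subunit that works with Fyn in oligodendrocytes, stood at 8.80, 8.81, 8.66 and 8.81 in controls and at 9.10, 9.23, 9.02 and 9.28 with cuprizone, a log2 difference of 0.39 ± 0.07 (adjusted p = 0.00553, limma). The groups did not overlap. The kinase Cdk5 fell by 0.23 ± 0.05 (limma adjusted p = 0.0244), and its adjusted p reached 0.0752 over the alternatives, past the threshold in 9 of 17. It was lost without any 1 of control replicates 1, 3 and 4 and cuprizone replicates 1, 2 and 4, with the replicate number as a block, and without both cuprizone replicates 2 and 3 (0.0752).

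In the list around Tcf7l2 and Wnt targets 1 of 18 genes rose and 2 fell, with a median of -0.01. Tle3, a Groucho corepressor that binds TCF factors, stood at 8.63, 8.91, 8.73 and 8.82 in controls and at 9.22, 9.33, 9.46 and 9.43 with cuprizone, a log2 difference of 0.59 ± 0.08 (adjusted p = 0.000678, limma). All cuprizone arrays were above all controls. Nkd1, a feedback inhibitor of Wnt signalling, fell by 0.44 ± 0.07, and Rnf43, a ubiquitin ligase that removes Wnt receptors, by 0.27 ± 0.07. The adjusted p of Rnf43 was 0.0255 and up to 0.136 over the alternatives, past the threshold in 9 of 16. It was lost without any 1 of control replicates 1, 2 and 4 and cuprizone replicates 2, 3 and 4, and without both cuprizone replicates 2 and 3 (0.136). Lef1, a relative of Tcf7l2 named here after its values were seen, stood at 8.15 and 8.14 on cuprizone replicates 2 and 3 and at 7.40 to 7.82 on the other arrays, high on the same 2 arrays as Tcf7l2.

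In the BMP signalling list 2 of 23 genes rose and 1 fell, with a median of 0.01. Smad7, an inhibitory Smad, stood at 8.62, 8.39, 8.74 and 8.73 in controls and at 8.09, 8.21, 7.98 and 7.98 with cuprizone, a log2 difference of -0.55 ± 0.09 (adjusted p = 0.00221, limma). Smad5, which BMP receptors activate, rose by 0.35 ± 0.07 (adjusted p = 0.0119 in limma, 0.106 without both cuprizone replicates 2 and 3). Id3, a target of the pathway, rose by 0.29 ± 0.07 (limma adjusted p = 0.0355; up to 0.102 over the alternatives, past the threshold in 8 of 17). That call was lost without any 1 of control replicates 2, 3 and 4 and cuprizone replicates 1, 3 and 4, with the replicate number as a block, with the thalamic covariate (0.0729), and without both cuprizone replicates 2 and 3 (0.0718). Neither Nog, a BMP antagonist, at 0.04 nor the receptor Bmpr1a at 0.05, both named after their values were seen, passed the threshold.

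Among 13 measured relatives of the members 1 gene rose and 2 fell, with a median of -0.05. Over all clusters tested 8.22% were called, and nothing particular to these families is drawn from the count. Enpp4 fell by 0.50 ± 0.06 (limma adjusted p = 0.000426) and Enpp3 by 0.43 ± 0.07 (limma adjusted p = 0.00392), both of the family of Enpp6. Enpp5 of the same family, named after its values were seen, was not called, at -0.06 ± 0.06 (limma adjusted p = 0.659). The mean level of Enpp3, 5.5 in controls and 5.06 with cuprizone, lay below the 95th percentile of olfactory receptor clusters, 6.22, in both diets. Cysltr1, a cysteinyl leukotriene receptor related to Gpr17, rose by 0.37 ± 0.07 (limma adjusted p = 0.00607).

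**Figure D5:**
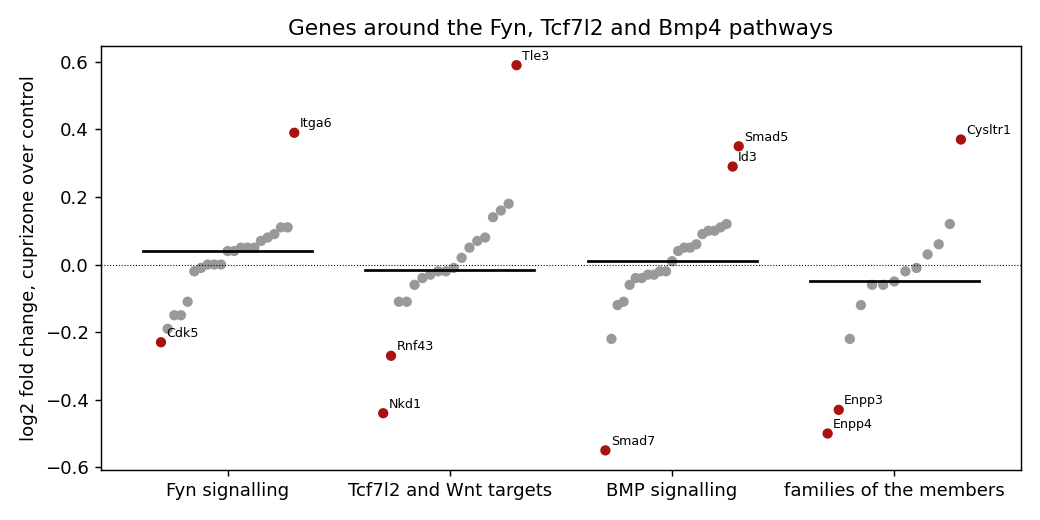
Log2 fold change, cuprizone over control (vertical axis), of the genes of 4 lists around the members, ordered by value within each list; red points with names passed the limma threshold and black lines are list medians. The medians lie between -0.05 and 0.04. Some of the 11 named genes lie close to genes that did not pass, such as Cdk5 (-0.23) beside Dcc (-0.19).

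Lists of other cells in the tissue were read for the same arrays. Of 13 microglial genes 10 rose and none fell, with a list mean of 8.67 to 9.02 with cuprizone against 8.13 to 8.29 in controls. The endothelial and mural list and the list of choroid plexus, ependyma and meninges had 0 of 12 and 0 of 14 genes called by limma, and the mean of the second ranged from 7.30 to 8.06 over all arrays. Their part in the values of the 9 genes was not tested.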

How the data were processed

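The 8 Affymetrix Mouse Gene 1.0 ST arrays, 4 per diet, were hybridised from 150 ng of total RNA each, per the labels' protocols. The deposited values are log2 levels of 28944 transcript clusters. Expression Console, RMA and Transcriptome Analysis Console are listed by the submitters' processing notes, without versions; a genome build is not given in the sources used here. RMA gives all arrays nearly 1 distribution, which hides a shift common to most genes. Scan dates were not used, and batches were not tested. The 23410 clusters with a symbol in the platform annotation were fitted with limma 3.58.1 (R 4.3.3, 2 groups, default eBayes, two-sided, Benjamini-Hochberg). On simulated arrays the fit recovered 85.1% of 1.5-fold and 97.0% of 2-fold changes. That simulation drew noise independently for each cluster, so it does not cover differences that many genes of an array share. Errors after ± are SE for differences and SD for levels, and the number of arrays limits the precision. Genes stand by their single-symbol cluster of highest mean. Besides the members, Mog and Pdgfra, the naming rule took up to 4 called genes of smallest p per list, or 2 where none was called, and the 3 genes most alike to Gpr17, Enpp6 and Bcas1; only those that bear on the members are given. Promoters came from a RefSeq table. The members and lists were chosen with earlier results of these data known. The labels call the samples biological replicates. Alternatives were the replicate block, each array left out, other normalizations, priors, filters, weights and references.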

Additional observations from a re-analysis of the deposited data

Results flagged for a closer look

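The 4 arrays of each diet were searched for a single array far from the other 3, over the 49 genes that were members or met the naming rule. This held for 5 of 98 groups, and chance gives about 1 in 20. Gpr17 stood at 8.33 on cuprizone replicate 1, against 8.54 to 8.57 on the other cuprizone arrays. For Itga6 the low array was control replicate 3, at 8.66, with the remaining controls at 8.80 to 8.81. Calb2, of the thalamic and habenular list, stood at 7.88 on control replicate 1, against 7.19 to 7.27, which was also the control array with the highest Tcf7l2. Ly86, a microglial gene, stood at 10.62 on cuprizone replicate 3, against 10.30 to 10.31. Cd8b1, of the T cell list, stood at 5.93 on control replicate 4, against 5.66 to 5.67.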

How the results depend on the processing

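The count of members called, 3 lower and 0 higher, was the same in all 18 alternatives, and Enpp6, Bcas1 and Rnf122 kept log2 fold changes of -0.78 to -0.70, -0.88 to -0.67 and -0.78 to -0.67. The value that reversed was that of Tcf7l2, at -0.11 without both cuprizone replicates 2 and 3. With a 1.5-fold minimum the lists held 2 lower genes among other precursor genes, 1 lower progenitor gene, 0 higher and 0 lower in each of the Fyn, BMP and family lists, 0 lower Wnt genes, 1 higher and 1 lower astrocyte gene and 6 higher microglial genes. With the replicate number as a block they held 0 lower Fyn, 1 higher BMP and 1 lower astrocyte genes, and with this block Zfp488, Cdk5 and Id3 lost their calls, while Enpp6, Bcas1 and Rnf122 kept theirs (limma adjusted p = 0.000953, 0.0101 and 0.00225). Arrays with the same number deviated together at correlations of -0.19 to 0.21, so over all clusters the numbers do not pair them, although choroid plexus genes were higher on replicates 2 and 4 of each diet. Without both cuprizone replicates 2 and 3 there were 0 lower Fyn, 1 lower Wnt, 0 higher BMP, 4 lower astrocyte and 1 lower thalamic genes. Without dim clusters, which also removed Neu4, there were 1 lower Wnt, 0 higher and 1 lower family, 1 lower neuron and 1 lower thalamic genes. There was 1 lower thalamic gene with a trend and robust prior, with array weights and with the thalamic covariate, and 1 higher BMP gene with the last. Leaving out 1 array at a time gave 0 to 1 lower Fyn, 1 to 2 lower Wnt, 1 to 2 higher BMP and 1 to 2 lower astrocyte genes, and 0 to 1 lower in the neuron, thalamic, endothelial and choroid plexus lists. The changes relative to Pdgfra then ranged from 0.38 to 0.55 for Bmp4, 0.24 to 0.39 for Fyn, 0.53 to 0.87 for Tcf7l2, -0.52 to -0.41 for Rnf122, 0.06 to 0.20 for Neu4 and 0.12 to 0.20 for Gpr17. Adjusted over both references, the calls lost were Fyn (each control, cuprizone replicates 1 and 4; up to 0.0964), Bmp4 (control replicates 1 and 3, each cuprizone array; up to 0.0735) and Rnf122 (control replicate 2; 0.0686), and Tcf7l2 was called without cuprizone replicate 4 (0.0367). Cspg4 in place of Pdgfra changed no call made over both references. The causes were not tested. Leaving out both cuprizone arrays, the thalamic covariate and adjustment over Pdgfra alone were chosen after seeing the data. Another cluster of the same gene was not run, since each member had 1. The number of arrays and signal over background, unknown per cluster, limit small changes.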
